A study of Mus musculus with 5 samples.

Results

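The ribosomal protein genes were described in single cells sorted as CD3+ T cells from the mouse brain after stroke. They were chosen by symbol alone, as every gene named Rps or Rpl with a number and an optional a, x or l, together with the P stalk genes and Rpsa. This rule took 67 of the 2926 mouse genes that were deposited, 29 of the small (40S) and 38 of the large (60S) subunit. RefSeq holds 81 protein-coding genes with such symbols, and those without a row in the table were not analysed here. The cells came from the hemisphere on the side of a photothrombotic stroke, an infarct made by light on a dye in the blood, in wildtype C57BL/6 mice. All groups were sampled at day 14. The 3 trained samples came from mice given running wheels from day 2, and the 2 untrained samples (controls) from mice without training. Cells had been stained for CD45 and CD3 and sorted singly into 384-well plates for SORT-seq, in which each well carries its own barcode.

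A ribosome reads messenger RNA in its small subunit and joins amino acids in its large subunit. Each ribosomal protein is made in near-equal numbers for assembly, and the cell sets their synthesis together, largely through a pyrimidine tract at the start of their messages (the 5′ terminal oligopyrimidine tract, TOP) that ties translation to growth signals. In T cells, growth and effector differentiation are known to alter ribosome production.

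The table held 692 cells, from 66 in trained sample 1 to 190 in untrained sample 2. Its values are scores, not counts, so the depth behind each value is unknown and levels cannot be compared between genes. A score of 0 has no fixed meaning across genes, and each difference given is one of scores, which need not be one of expression. In untrained sample 2 the mean of 40 of the 67 members was 0 within 1e-06, and in the other 4 samples no member had such a mean. The median SD of a member between cells was 0.839 in that sample and 0.545 to 0.686 in the others, so untrained sample 2 stood apart before any comparison. Whether each sample was a separate animal or a pool is not in the labels, and the p-values therefore measure no more than the spread between these 5 samples. Of 331 well names 221 occurred in more than 1 sample, as plates of 1 layout give, and no 2 cells had identical values. T cell markers (7 of 7 measured) had mean scores of -0.003 to 0.046 in untrained and 0.044 to 0.076 in trained samples. The mean score of the T cell markers was above 0 in 345 cells, here called T marker-positive, and at or below 0 in 347, so the label was not borne out by these scores in every cell. Myeloid markers (8 of 13 measured) lay at -0.066 and 0.034 in untrained samples and at -0.162 to -0.108 in trained samples. Cells with a mean myeloid score above 1 numbered 41 in untrained sample 2, 0 in untrained sample 1 and 2 to 4 in the trained samples. Of the markers of B cells, neurons, astrocytes, endothelium and red cells none was measured, and of those of NK cells and oligodendrocytes 1 each, Klrk1 and Mbp.

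The start regions of members at both ends of the likeness order given below are shown to set their runs of C and T side by side. Each line gives 30 bases, 15 before and 15 after the RefSeq start (GRCm38.p6), 5′ to 3′ on the plus strand, with the longest unbroken run of C and T in capitals. For genes with 2 listed starts the first was taken. Rps27l, Rpl31 and Rpl7a were among the 5 members least like the rest, and Rps24, Rps16 and Rpl12 among the 5 most like it.
Rps27l (chr9:66946071-66946100): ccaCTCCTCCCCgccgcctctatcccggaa
Rpl31 (chr1:39367836-39367865): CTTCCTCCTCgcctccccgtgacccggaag
Rpl7a (chr2:26910792-26910821): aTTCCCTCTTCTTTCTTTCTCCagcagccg
Rps24 (chr14:24490663-24490692): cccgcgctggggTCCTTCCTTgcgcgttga
Rps16 (chr7:28350674-28350703): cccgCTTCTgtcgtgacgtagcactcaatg
Rpl12 (chr2:32961697-32961726): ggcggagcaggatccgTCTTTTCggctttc

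The run was 9 bases long in Rps27l, 10 in Rpl31 and 21 in Rpl7a, against 9 in Rps24, 5 in Rps16 and 7 in Rpl12. The longest run ended before the start in Rps27l, Rpl31 and Rps16, and crossed it in Rpl7a and Rps24. In Rpl12 it began at the second base of the message. A shorter run, cctcccc, took in the first base in Rpl31, and in Rps27l a shorter run, cctct, began at the second base. A run that does not take in the first base is not a TOP tract at that start. Of the 67 members 48 matched RefSeq's table of start regions, with 58 starts in all. A run of at least 8 bases lay anywhere in these 30 bases at 36.2% of members' starts and at 12% of all 32851 starts. In the 300 bases from 250 before to 50 after the start, searched on both strands, CCGGAAG, a core of ETS factor sites, occurred at 34.5% of members' and 8.86% of all starts. GGGCGG, the GC box, occurred at 62.1% and 35.7%, and AAGATGGC, a core of YY1 sites, at 8.62% and 2.75%. TATAAA was found at 10.3% and 13.6%, and CACGTG, the E box, at 10.3% and 7.15%. These searches overlap only where letters are shared, and a match is a description of the sequence.

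Across the cells of a sample the scores of the ribosomal protein genes went up and down together, in both subunits. Within each sample the mean score of the small subunit correlated with that of the large subunit at r = 0.971 to 0.987, over 66 to 190 cells that share library and depth. The median correlation between a pair of members was 0.601 and 0.643 in untrained samples 1 and 2 and 0.575, 0.618 and 0.696 in trained samples 1 to 3. Over all pairs of mouse genes it was 0.055 to 0.110. Pairs within the small subunit had medians of 0.620 to 0.735, pairs within the large subunit 0.548 to 0.666 and pairs across subunits 0.575 to 0.697. The cross-subunit pairs therefore lay between the other kinds. A single axis held 57.1% to 68.0% of the variance of the members, and the next axis 2.33% to 4.56%.

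In single cells the mean over the members ran from -0.747 through a median of 0.117 to 0.902 in untrained sample 1. It ran from -0.757 through -0.167 to 2.10 in untrained sample 2. Trained samples 1, 2 and 3 had medians of 0.171, 0.103 and 0.038 and highest cells at 0.947, 1.15 and 1.20. The lower ends of all 5 samples were alike, and the upper end reached farthest in untrained sample 2. Both subunits lay above 0 in 39.5% of the cells of untrained sample 2 and in 49.4% to 59.1% of those of the other samples. They lay on opposite sides of 0 in 3.68% to 6.06% of cells.

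The member mean moved with general features of the cell. Its correlation with the mean of all other genes was 0.684 to 0.857 over the samples, that with the T cell markers 0.678 to 0.793, and that with the noncoding RNA Kcnq1ot1 -0.839 to -0.661. With the spike-in RNAs, which are added in fixed amount, it was -0.195 to 0.045. The part of these features in the coherence of the members was not tested. With each cell centred on its mean over all genes, the median likeness of a member to the rest was 0.733, against 0.804 as deposited, and among T marker-positive cells it was 0.573.

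Likeness is the correlation over cells of a member with the mean of the other members, averaged over the 5 samples. The 5 most like the rest were Rps24 of the 40S body (0.909 ± 0.031, SD, n = 5), the P stalk gene Rplp1 (0.903 ± 0.020), Rpl17 at the exit tunnel (0.889 ± 0.034), Rps16 of the 40S head (0.879 ± 0.028) and Rpl12 (0.878 ± 0.035). The P stalk recruits elongation factors, and the exit tunnel guides the new chain out of the large subunit. The median was 0.819 in the small and 0.787 in the large subunit. The SD between cells, averaged over samples, had medians of 0.671 and 0.638 in these subunits. Its part in the order of subunits and roles was not tested. By role the medians were 0.823 for the 40S head, 0.817 for the 40S body and platform, 0.818 for the exit tunnel and its rim, 0.887 for the 2 P stalk genes and 0.780 for the other 60S genes. Rpl11, which binds the 5S ribosomal RNA, stood at 0.696.

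**Figure D1:**
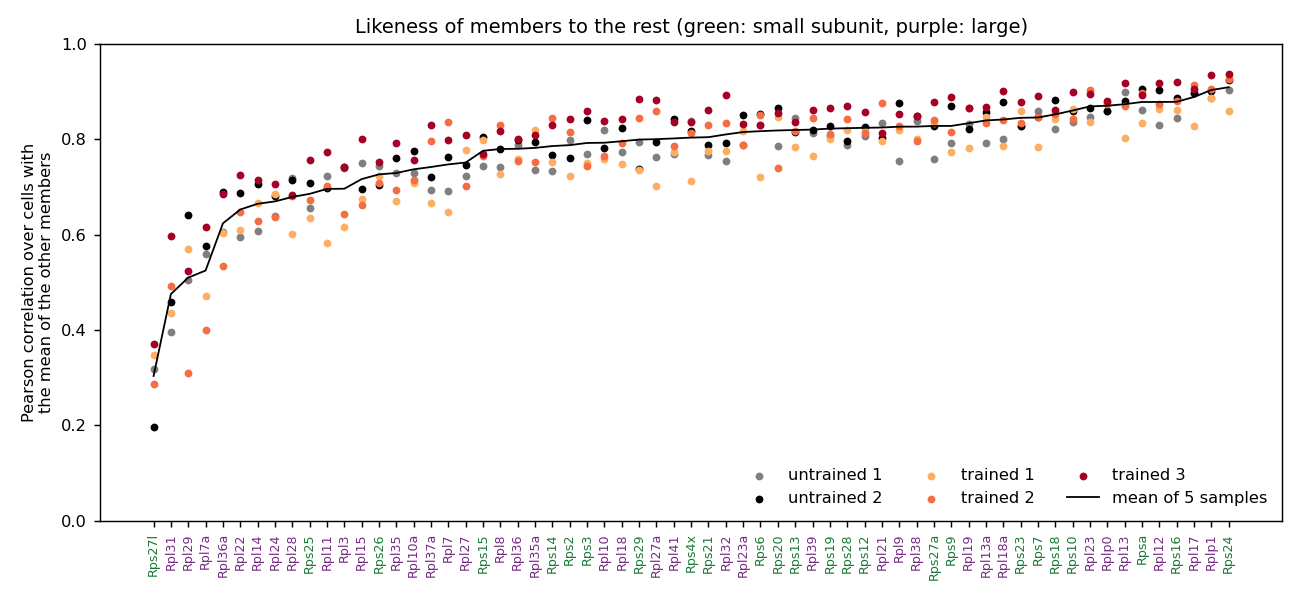
Likeness of 63 members (horizontal axis, gene symbols in order) to the mean of the others (vertical axis, Pearson correlation over the cells of a sample). Points are the 5 samples and the line is their mean, which runs from 0.303 for Rps27l to 0.909 for Rps24.

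A few members followed the rest least. Rps27l, a paralogue of the 40S gene Rps27 known as a p53 target, had correlations of 0.318 and 0.196 in untrained and 0.346, 0.286 and 0.371 in trained samples (mean 0.303). Its mean was the lowest of all members. The large subunit genes Rpl31 (0.475 ± 0.076), Rpl29 (0.510 ± 0.124) and Rpl7a (0.525 ± 0.087) were also among the 5 least like the rest. Rpl36a, an X-linked member, stood at 0.624 just outside those 5. The same 5 genes were the least like the rest under all 8 other settings tried for likeness. With cells centred on their mean, Rps27l stood at 0.073 and Rps24 stood at 0.885.

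These members also had small spreads of score. The SD between cells, averaged over samples, was 0.488 for Rpl7a, 0.503 for Rps27l, 0.538 for Rpl29 and 0.553 for Rpl31, against a median of 0.663 over members. Over the 67 members likeness and this SD had a Spearman rho of 0.879, a description over genes measured in the same cells. The part of the small spread in the low likeness was not tested. The genes most like each of these members, chosen after their values were seen, were again mostly ribosomal. Those most like Rps27l were Rpl28 (0.298), mtCo3 (0.293) and Rps28 (0.292). For Rpl7a they were Rpl14 (0.509), Tpt1 (0.507) and Rps27a (0.494).

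Among the 2859 other genes, those most like the member mean were partly of the same machinery. Tpt1, a translationally controlled growth gene, led at a mean correlation of 0.909, followed by the elongation factor gene Eef1a1 (0.872), Gnb2l1, the older symbol of the 40S scaffold Rack1 (0.831), and Rps3a1 (0.807). Fau, a ubiquitin-like and 40S fusion, stood at 0.771, the thymosin gene Tmsb10 at 0.777 and the mitochondrial mtCo3, mtAtp6 and mtCo2 at 0.748, 0.742 and 0.723. At the other end lay A630089N07Rik (-0.766), Kcnq1ot1 (-0.762), Gm10785 (-0.752), and Gm17821 (-0.743). The median over all other genes was 0.249, and 95% of them lay below 0.454. Rps3a1, Gnb2l1 and Fau fall outside the symbol rule although their proteins are parts of the ribosome, and their likeness lay within the range of the members. Median correlations were 0.596 for 6 elongation factors and 0.304 for 33 genes listed by symbol as initiation factors, among them kinases of eIF2. They were 0.291 for 9 ribosome biogenesis genes and 0.238 for 33 genes of the mitochondrial ribosome. The last is a separate particle with its own proteins.

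In all sorted cells the members had slightly positive scores in most samples. The median over members was 0.072 in untrained sample 1, 0 within 1e-06 in untrained sample 2, and 0.097, 0.050 and 0.046 in trained samples 1 to 3. Rpsa, a 40S protein also known as a laminin receptor, had 0.260 and 0.105 in untrained and 0.218, 0.279 and 0.197 in trained samples, and these values of the groups overlap. The levels of the small and large subunit were not compared, since the genes share no scale.

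**Figure D2:**
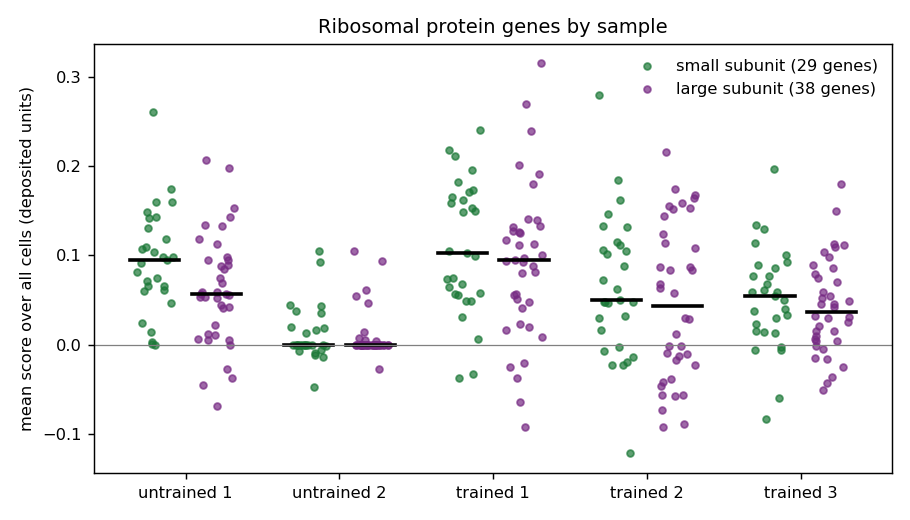
Mean score over all cells of each member (points, vertical axis in deposited units) in the 5 samples (horizontal axis), by subunit, with black bars at the median. Values of untrained sample 2 gather at 0, where 40 of 67 members lie, and those of the other samples lie mostly above it.

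The first comparison set the mean scores of trained samples against those of untrained samples in all sorted cells. In untrained sample 2 the mean was 0 within 1e-06 for 40 of the 67 members. Over all other genes the mean was -0.024 to -0.015 in the 5 samples. How far processing set these means is unknown, so neither a difference nor its absence can be read as an effect of training. No member passed limma over all genes, and of all 2926 genes 0% did. Of the members 49 had a higher and 18 a lower mean in trained samples, where 50% of all genes were higher and 50% lower. Median differences were 0.017 in the small and 0.031 in the large subunit, and -3.99e-05 over all genes. At an unadjusted p under 0.05, 8 members were higher and 3 lower, against 3.69% and 4.03% of all genes (7.72% in either direction). Rpl12, which lies near the stalk base, had 0.153 and 0.054 in untrained and 0.239, 0.216 and 0.180 in trained samples. Its groups did not overlap, and the difference was 0.108 ± 0.031 (SE, limma adjusted p = 0.468). Rpl36 had 0.057 and -0.027 against 0.141, 0.087 and 0.090, a difference of 0.091 ± 0.029 (limma adjusted p = 0.518). Here too each trained sample lay above both untrained samples.

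Rpl13a, whose protein is known to be released from the ribosome on interferon signals, had 0.090 and 0.061 against 0.192, 0.159 and 0.110, and differed by 0.078 ± 0.027 (limma adjusted p = 0.518). In the small subunit Rps18 of the head differed by 0.075 ± 0.028 and Rps14 of the platform by 0.080 ± 0.031. The groups did not overlap for 8 members on the higher side (11% of all genes) and for 3 on the lower (14%), namely Rpl11, Rps3 and Rpl3. With 67 members the count on the higher side is near the share of all genes, and that on the lower side is under it. Without untrained sample 2 the medians were -0.024 and 0.002, and 28 members were higher, as were 42.5% of all genes. Without trained sample 1 the medians were 0.004 and 0.008. Without the myeloid marker-positive cells, most of them from untrained sample 2, the medians were -0.008 and -0.002.

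T marker-positive cells numbered 345 of the 692, with 125 of them between 0 and 0.25, and this gate rests on markers whose score followed the member mean as given above. All 67 members had positive means there in each sample, and in the remaining 347 cells all 67 had negative ones. The small subunit had 0.376 and 0.622 in untrained and 0.448, 0.420 and 0.436 in trained samples. The large subunit had 0.326 and 0.601, and 0.416, 0.380 and 0.401. The trained samples lay close together and between the untrained ones. Of the members 56 were lower and 11 higher in trained samples, where 60.6% of all genes were lower and 39.4% higher. The medians were -0.059 for the small and -0.058 for the large subunit, and -0.012 over all genes. No member passed limma, nor did any gene (0%), and at an unadjusted p under 0.05 stood 4 members, all lower, against 1.20% of all genes lower and 0.513% higher (1.71% in either direction).

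**Figure D3:**
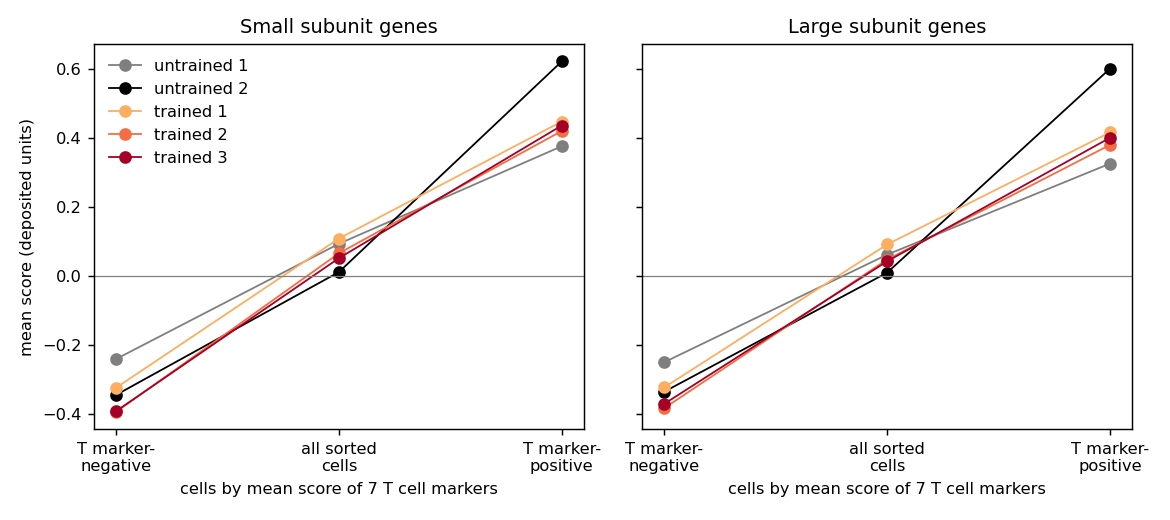
Mean score of small and large subunit members (vertical axes, deposited units) in T marker-negative, all and T marker-positive cells of each sample (lines). Untrained sample 2 lies at 0.622 and untrained sample 1 at 0.376 for the small subunit in T marker-positive cells, with the 3 trained samples from 0.420 to 0.448.

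Among the members with the smallest p in these cells were Rpl28, Rpl11 and Rpl3. Rpl28 had 0.336 and 0.486 in untrained and 0.242, 0.242 and 0.206 in trained samples. It differed by -0.181 ± 0.053 (SE, limma adjusted p = 0.998). Rpl11, known as a brake on Mdm2 when free of the ribosome, had 0.308 and 0.509 against 0.148, 0.214 and 0.224. For both, every trained sample lay below both untrained samples, as it did for 5 members in all (8.34% of all genes did). Rpl3, near the peptidyl transferase center, was another of them and differed by -0.186 ± 0.066. Rps29, a zinc-binding protein of the head, was the lone member whose groups did not overlap on the higher side, with 0.466 and 0.363 against 0.590, 0.477 and 0.489 (6.43% of all genes). Its difference of 0.104 ± 0.054 had a limma adjusted p of 0.998.

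This comparison turned on the untrained sample used. Without untrained sample 1, 24 members passed limma, all lower in trained samples, 10 of the small and 14 of the large subunit, where 4.96% of all genes passed. Among them were Rps19 (-0.378 ± 0.057, limma adjusted p = 0.0136) and Rpl13a (-0.359 ± 0.050, limma adjusted p = 0.0135). In this fit the untrained group is untrained sample 2 alone, whose spread is taken to be that of the trained samples. Without untrained sample 2, 0 members passed limma (12 had an unadjusted p under 0.05, as had 4.03% of all genes), 54 were higher (57.3% of all genes), and the medians were 0.048 and 0.086. T cell markers moved the same way between the untrained samples in these cells, at 0.288 in untrained sample 1 and 0.666 in untrained sample 2, with trained samples at 0.331 to 0.380. Their part in the difference was not tested.

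The coreceptor gates ordered the cells by ribosomal protein score. The CD8 gate took cells whose Cd8a and Cd8b1 scores averaged over 0 while Cd4 did not exceed 0, and the CD4 gate took the opposite cells. Each gate is a range of scores and not a cell type, with 50 of 159 CD8-gated and 34 of 146 CD4-gated cells between 0 and 0.25. The median Cd3e score was 0.199 in CD8-gated cells, and CD4-gated cells had 0.090. Cells above both gates (57) had the highest means of both subunits in each sample, at 0.550 ± 0.257 for the small and 0.528 ± 0.233 for the large subunit (SD, n = 5). Only 2 of these cells came from trained sample 2. CD8-gated cells followed at 0.290 ± 0.053 and 0.260 ± 0.073, and CD4-gated cells at 0.152 ± 0.137 and 0.132 ± 0.135. The 330 cells above neither gate were lowest in each sample, at -0.178 ± 0.056 and -0.176 ± 0.048. CD8-gated cells exceeded CD4-gated cells in 4 of 5 samples, so these neighbours in the order were not separated in all samples. In the same order of classes the mean over all other genes was 0.082, 0.014, 0.044 and -0.085, so it too was highest above both gates and lowest above neither. The T cell markers had means of 0.307, 0.210, 0.171 and -0.141, and Kcnq1ot1 had -0.498, 0.010, -0.149 and 0.654. Myeloid markers had -0.195, -0.221, 0.002 and -0.087. Over the samples they ran from -0.480 to -0.117 in CD8-gated and from -0.110 to 0.181 in CD4-gated cells. Cells with a mean myeloid score above 1 numbered 4 in the CD8 gate and 8 in the CD4 gate. The part of these markers, of Kcnq1ot1 and of the mean over all other genes in the order was not tested.

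**Figure D4:**
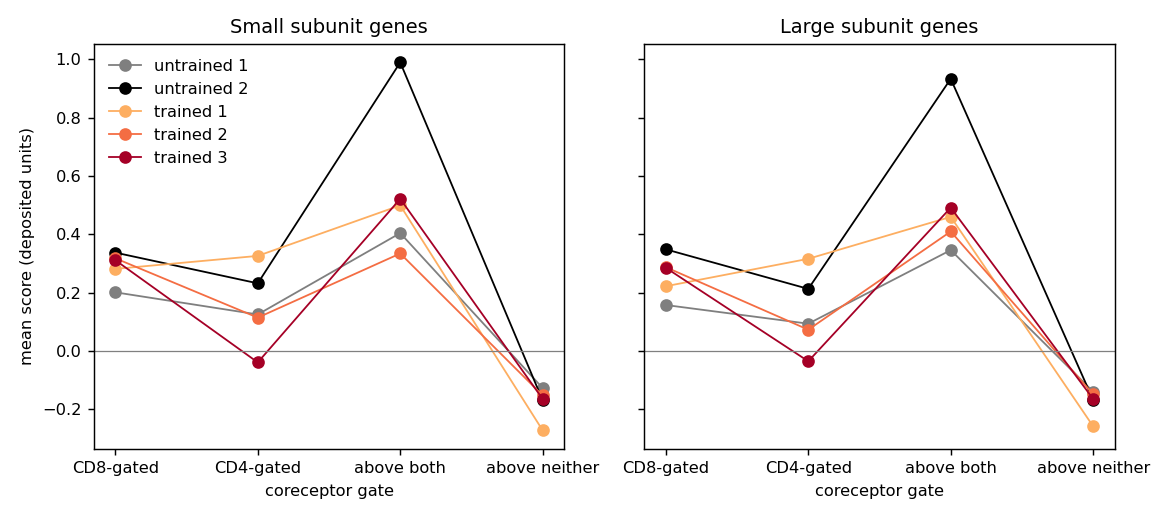
Mean score of small and large subunit members (vertical axes, deposited units) in the 4 coreceptor gate classes (horizontal axes) of each sample (lines). Cells above both gates are highest and cells above neither are lowest in each sample, and CD8-gated cells lie above CD4-gated cells in all but trained sample 1.

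The gate classes were then set against each other within samples, to describe how CD8-gated cells differ from CD4-gated cells in these genes. Of the 67 members 64 had a higher mean difference in CD8-gated cells, where 38.5% of all genes did and 61.5% were lower. None of the members passed limma over all genes (0.171% of all genes passed). The median difference was 0.134 in the small and 0.122 in the large subunit, against -0.027 over all genes. At an unadjusted p under 0.05 stood 24 members, all higher, where 3.80% of all genes were higher and 9.31% lower (13.1% in either direction). In 5 of 5 samples 18 members were higher, 8 small and 10 large (4.45% of all genes), and 0 were lower in all 5 (9.37%).

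Rpl32, a 60S protein, came closest to the threshold. In CD8-gated cells it had 0.200 and 0.610 in untrained and 0.435, 0.356 and 0.398 in trained samples. In CD4-gated cells it had 0.073 and 0.089, and 0.069, 0.072 and -0.002. Every CD8-gated value lay above every CD4-gated value, and the difference was 0.340 ± 0.065 (SE, limma adjusted p = 0.0505). It passed under 7 of the 13 other settings, with limma adjusted p-values from 0.0142 with scores divided by their SD to 0.0491 in T marker-positive gated cells. Under the other 6 settings its limma adjusted p ran from 0.0575 to 0.214.

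Rpl17, with 0.463 ± 0.095 in the CD8 gate and 0.186 ± 0.120 in the CD4 gate (SD, n = 5), was higher in 5 of 5 samples by 0.077 to 0.493. Its difference was 0.277 ± 0.068 (SE, limma adjusted p = 0.131). Rpl23, a large subunit protein that like Rpl11 can bind Mdm2, had 0.399 ± 0.084 and 0.143 ± 0.123, a difference of 0.255 ± 0.066 (limma adjusted p = 0.152).

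In the small subunit Rps26, at the exit of the messenger channel, had 0.305, 0.165, 0.315, 0.467 and 0.305 in the CD8-gated cells of untrained samples 1 and 2 and trained samples 1 to 3. In CD4-gated cells it had 0.077, 0.034, 0.144, 0.102 and -0.030. All CD8-gated values lay above all CD4-gated values, with a difference of 0.246 ± 0.061 (SE, limma adjusted p = 0.131). Rps28 had 0.326 ± 0.070 and 0.076 ± 0.185 (SD, n = 5). It belongs to the 40S head and was higher in 5 of 5 samples.

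**Figure D5:**
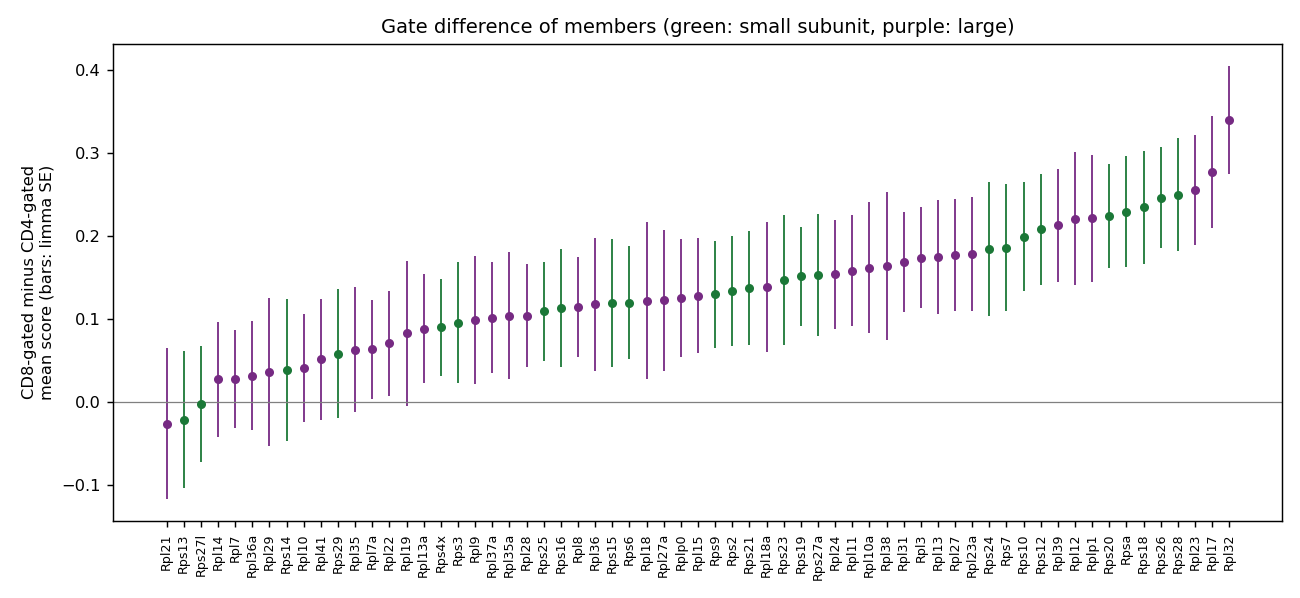
Difference of mean score between CD8-gated and CD4-gated cells (vertical axis, deposited units, bars are limma SE) for 63 members (horizontal axis, in order). Points of both subunits are mixed along the order, which runs from -0.026 for Rpl21 to 0.340 for Rpl32.

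By role, all 14 genes of the 40S head had a positive difference (median 0.152, 7 with an unadjusted p under 0.05), as had 13 of 15 of the 40S body and platform (0.130, 4). All 6 genes of the exit tunnel and its rim did (0.173, 4), both P stalk genes (0.173) and 28 of 29 other 60S genes (0.115, 7). The 4 X-linked members had a median of 0.065. The departing members stood lower, with Rps27l at -0.003 ± 0.070, Rpl29 at 0.036 ± 0.089 and Rpl7a at 0.063 ± 0.060, but Rpl31 at 0.168 ± 0.060. Rpl21 had the lowest difference (-0.026 ± 0.091). It was 0.046 and -0.001 in untrained and -0.559, 0.202 and 0.182 in trained samples, and without trained sample 1 it was 0.107.

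The samples did not share 1 size of difference. The median over members was 0.075 and 0.113 in untrained and -0.048, 0.228 and 0.339 in trained samples. Trained sample 1, with 17 CD8-gated and 16 CD4-gated cells, was the sample below 0. Its CD4-gated cells had the highest member mean of the 5 samples (0.320), and those of trained sample 3 the lowest (-0.037, with 17 of 67 members above 0). CD8-gated means ran from 0.176 in untrained sample 1 to 0.344 in untrained sample 2. Kcnq1ot1 stood at 0.155 in CD8-gated cells and -0.431 in the CD4-gated cells of trained sample 1, and at -0.129 and 0.139 in trained sample 3. In untrained sample 2 it was 0.098 and -0.570, with member means of 0.344 and 0.221. The part of what Kcnq1ot1 marks in the gate difference was not tested. Without trained sample 1 all 67 members were higher, where 38.0% of all genes were, with medians of 0.177 and 0.191. In that fit 0 members passed limma (42 had an unadjusted p under 0.05, as had 10.5% of all genes). Without trained sample 3, 57 members were higher and 10 lower, where 35.3% of all genes were higher, with medians of 0.084 and 0.077. There too 0 members passed limma (10 had an unadjusted p under 0.05, as had 11.5% of all genes).

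Gated cells that were also T marker-positive, 108 CD8-gated and 93 CD4-gated, had larger median differences, though the change between these sets of cells was not tested. All 67 members were higher in CD8-gated cells, where 44.6% of all genes were, with medians of 0.268 in the small and 0.227 in the large subunit. There 4 members passed limma, where 0.376% of all genes did. They were Rps28 (0.413 ± 0.072, limma adjusted p = 0.0445), Rpl23 (0.430 ± 0.079, limma adjusted p = 0.0488), Rpl32 (0.480 ± 0.094, limma adjusted p = 0.0491) and Rps10 of the head (0.337 ± 0.065, limma adjusted p = 0.0491).

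Partners of the ribosome were mixed between the gates, in the same fit, where 0.171% of all genes passed limma and 13.1% had an unadjusted p under 0.05. Of the 5 ribosomal genes outside the symbol rule 4 were higher in CD8-gated cells, among them Gnb2l1 by 0.179 ± 0.060 and Rps3a1 by 0.184 ± 0.065, each in 5 of 5 samples, and 0 passed limma (2 had an unadjusted p under 0.05). All 5 genes of a mixed list, nascent chain factors with Tpt1 and others, were higher by 0.073 to 0.178. Of these 0 passed limma (1 unadjusted), and the chaperone gene Hspa8 was among them. Elongation factors were split, 3 higher and 3 lower, from Eef1b2 at 0.223 to Eef1d at -0.096, with 0 past limma (1 unadjusted). The genes listed by symbol as initiation factors had 15 higher and 18 lower (median -0.015). Ribosome biogenesis genes had 4 and 5 (-0.020) and the mitochondrial ribosome 12 and 21 (-0.025). None of these passed limma (1, 0 and 0 had an unadjusted p under 0.05). Npm1 and Ncl, both nucleolar proteins, lay at 0.152 ± 0.079 and -0.116 ± 0.065. The growth regulators Myc, Rps6kb1 and Larp1 lay at 0.134 ± 0.059, 0.097 ± 0.067 and 0.019 ± 0.075, and the 6 TOP host genes of small nucleolar RNAs had a median of 0.005. Of 7 effector genes 3 passed limma, all higher in CD8-gated cells, and of 6 naive and recirculation genes 0 did (2 had an unadjusted p under 0.05, both lower). The latter were Il7r (-0.217 ± 0.078) and S1pr1 (-0.150 ± 0.070).

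Whether the gate difference itself changed with training was tested as an interaction. No member passed limma, nor did any gene (0%). The median was 0.086 in the small and 0.045 in the large subunit, with 0.078 over all genes. The difference was more positive in trained samples for 55 members and for 71.5% of all genes. With cells centred on their mean it was so for 31 members and 50.4% of all genes, and without trained sample 3 for 28 members and 68.7%. Only Rpl41, a very short 60S protein, had an unadjusted p under 0.05 among the members, in the higher direction (5.75% of all genes, and 5.92% in either direction). Its gate differences were 0.043 and -0.286 in untrained and 0.096, 0.225 and 0.179 in trained samples, and the interaction was 0.288 ± 0.133 (SE, limma adjusted p = 0.758). Rps10 had 0.095 and 0.036 against 0.185, 0.255 and 0.425, and Rpl11 had 0.001 and 0.043 against 0.106, 0.380 and 0.260. For both, the trained samples lay above the untrained ones without passing (limma adjusted p = 0.765 for each). Rpl37a stood at 0.238, Rps27l at 0.219 and Rps2 at 0.195, and Rpl29 was lowest at -0.181 ± 0.173. With the gate at 0.25 the gate difference was more positive in trained samples for 6 members and 58.0% of all genes, with medians of -0.177 and -0.176.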

How the data were processed

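Single CD3+ cells of 5 samples were measured by SORT-seq. Per the submitters' processing notes Cell Ranger was used, with no version. How reads were aligned, to which build, and how values were normalised is not given in the sources used here. The authors deposited 1 score per gene and cell. These scores lie between -2.12 and 3.74, 72.7% are negative and 0 are whole (within 1e-09). Scaled and integrated values have this form, which no label states. No count test applies to scores. Cells were assigned to samples by the number in their names, as the labels describe, and samples to groups by the treatment label. A second table repeats part of the first and was not used. Columns of cells with no mapped sample numbered 0.

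The mean score per gene, sample and class was fitted in R 4.3.3 with limma 3.58.1. Adjustment was by Benjamini-Hochberg over the 2926 genes, or 2923 without Cd4, Cd8a and Cd8b1 in the gate comparisons, and a two-sided threshold of 0.05. Training was the term in the sample comparisons, and sample was a block between gates, since both classes come from each sample. The fits were tested on simulated data with shifts larger than any member difference given here. That test does not show whether differences of the sizes seen would be found. No depth is known, so no precision from depth can be given. Processed pseudogenes share sequence with many ribosomal protein genes, and how such reads were counted is unknown here. Cell means used Python 3.11.15, numpy 2.4.6 and pandas 2.3.3.

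Named members were, for each comparison, those that passed and the 3 of each subunit with the smallest p, with the highest and lowest difference, and the 5 least and 5 most like the rest. The top 10 and lowest 5 other genes by correlation were named, with up to 3 genes of each partner list. A few genes that this rule takes are left unreported. Other genes named were chosen after their values were seen. Members and lists were chosen with earlier results of these data known. The other settings were scores divided by their SD, cells centred on their mean, medians over cells, weights by cells, no genes with low SD, other gates and leaving out each sample.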

Additional observations from a re-analysis of the deposited data

Results flagged for a closer look

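Of 19 values tested over the 5 samples, 2 had a sample far from the others by Dixon's criterion for 5 values (0.71). Most were of members chosen for a small p, an extreme difference or an extreme likeness. The genes also share cells, so no chance rate can be given. The gate difference of Rpl21 was -0.559 in trained sample 1, against -0.001 to 0.202 in the others. The likeness of Rpl17 to the rest was 0.829 in trained sample 1, against 0.897 to 0.915. Trained sample 1 has 66 cells, the fewest.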

How the results depend on the processing

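The gate difference kept a positive median in both subunits under all 13 other settings, and no member passed limma in all sorted cells for training under any of 11. For training in all sorted cells, medians over cells gave 0.120 and 0.128 for the small and large subunit, and the genes past the threshold ranged from 0 to 3 with samples left out. In T marker-positive cells leaving out a sample gave 0 to 145 genes, 0 to 24 members, and medians of -0.208 to 0.048 and -0.207 to 0.086. Rps29 stood at -7.4e-05 with that gate at 0.25. Between gates the genes and members past the threshold were 53 and 1 with scores divided by their SD, 10 and 2 with centred cells, 0 and 0 with medians over cells, 11 and 4 in T marker-positive gated cells, and 30 and 3 with no replicate block. They were 6 and 1 with the gate at 0.25 and without low-SD genes, and 0 to 7 and 0 to 1 with samples left out (0 genes without trained sample 1). Rpl21 ranged from -0.083 to 0.107 with samples left out, and changed sign to 0.038 with samples weighted, 0.018 with the gate at 0.25, 0.090 in T marker-positive gated cells and 0.107 without trained sample 1. For the interaction, leaving out samples gave 0 to 10 genes. The gate at 0.25 gave -0.177 and -0.176 for the subunits, -0.115 for Rps10, -0.217 for Rps2 and -0.0047 for Rpl41. Rps27l was -0.039 with medians over cells, and Rpl29 ranged from -0.370 to 0.0093 with samples left out, the last without trained sample 1. The interaction's 10 genes, the 145 genes and 24 members, and the 3 genes above all came without untrained sample 1. Median likeness was 0.834 with Spearman, 0.733 with centred cells and 0.573 in T marker-positive cells. The cause of these changes was not tested. No paired analysis of training was possible because the labels match no trained sample to an untrained one. Between gates the sample was the block, since both classes come from each sample.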
